A study of Saccharomyces cerevisiae with 56 samples.

Results

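The aminoacyl-tRNA synthetase genes of Saccharomyces cerevisiae, the budding yeast, were followed through ribosome profiling and RNA-seq libraries. They were chosen by name, as the enzymes that charge cytosolic tRNAs and those that charge mitochondrial tRNAs. The list holds 34 of the 6353 genes that are not annotated as dubious. Of these, 20 encode enzymes that act in the cytosol and 1, ARC1, encodes a cofactor that binds GUS1 and MES1. These are called the 21 cytosolic genes. The other 13 encode enzymes imported into mitochondria. All 34 were found in the RefSeq annotation of assembly R64, whose coordinates are used below.

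An aminoacyl-tRNA synthetase joins an amino acid to its tRNA, which the ribosome then uses to read codons. The cytosolic enzymes serve the translation of nuclear mRNAs and are among the abundant proteins of a growing yeast cell. The mitochondrial enzymes serve the few proteins made inside mitochondria and are encoded in the nucleus, translated in the cytosol and imported. When amino acids are scarce, uncharged tRNA activates the kinase Gcn2, which lowers translation initiation generally and raises translation of the transcription factor Gcn4.

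The study read 56 libraries, 1 of footprints and 1 of mRNA for each of 28 biological samples. A footprint is the mRNA fragment that a ribosome protects from RNase, and translation efficiency (TE) is the footprint level of a gene over its mRNA level, both as RPKM (reads scaled to the length of the counted CDS and to the library's total). The study asked whether cycloheximide (CHX), a translation inhibitor added before harvest, alters such measurements.

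The first set of samples follows 1 yeast metabolic cycle (YMC), the oscillation in oxygen use of continuously fed CEN.PK cells (MATa, a prototroph). It has 16 time points, all taken with CHX at 100 µg/ml. The second set compares replete cells, in SD medium, with cells starved for 20 min in SD without its amino acid, uracil and adenine supplements. All strains of the second set derive from BY4741 (MATa, with the deletions his3-Δ1, leu2-Δ0, met15-Δ0 and ura3-Δ0). BY4741 itself was harvested with CHX by centrifugation and without CHX by vacuum filtration and freezing, so that the drug and the harvest cannot be told apart. The other strains were harvested with CHX only. In strain yJW1862 the K. lactis NOP2 replaces NOP2 (nop2::klNOP2) and a NOP2 copy under its own promoter sits at yhrcdelta14. In yJW1861, made from the same parent strain as yJW1862, that copy is driven by the CCW12 promoter. In yJW1863 the same locus carries EGFP with ADH1 UTRs under the NOP2 promoter. The strain yJW1864 is labelled dot6::LEU2 tod6::URA3 stb3::kanMX6, deletions of repressors of ribosome biogenesis genes, which its libraries bear out only in part. Each condition of each strain has 1 sample, so the replicates of the starvation response are the 4 strains BY4741, yJW1861, yJW1862 and yJW1863. For mRNA and footprints, p-values measure the spread between these strains. Those for TE come from a fit that takes the mRNA and footprint libraries of a sample as independent. They do not measure the spread of TE itself between strains.

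Footprint libraries of the YMC held 10133399 to 27429226 counts and those of the starvation set 3632217 to 20036606. mRNA libraries held 14537913 to 23693465 counts in the YMC and 9648356 to 14773359 in the starvation set. GCN4 footprints, the marker of starvation, rose by 4.45 on the log2 scale over the 4 strains (SE 0.17, adjusted p = 1.0e-08, edgeR's quasi-likelihood test). In the samples labelled yJW1864 DOT6 had 4 and 9 mRNA counts, but STB3, also labelled as deleted, had 921 and 1062, within the 736 to 1624 of the samples with intact STB3. TOD6 had 0 and 1 mRNA counts there. LEU2, the marker that the label places at dot6, had 0 and 1 mRNA counts, but 17 footprints in the replete and 895 in the starved sample. LEU2 footprints were 0 to 28 in BY4741 and yJW1861 to yJW1863. URA3, the marker at tod6, had 711 and 1052 mRNA counts. MET17, the gene deleted as met15-Δ0, had 148 footprints in replete and 255 in starved BY4741 with CHX. In BY4741 without CHX and in yJW1861 to yJW1863 it had 0. The source of these MET17 reads was not tested. Positions that do not map uniquely were masked by the authors, which includes stretches shared by GRS1 and GRS2. The reporter strains yJW1861 to yJW1863 were counted with a smaller mask, so levels are compared between genes only within BY4741. Overlap between conditions is given over the values of all 4 strains and so across both masks. The fitted changes, with the strain as a block, are within strains. In bulk libraries, less RNA of a gene in every cell and fewer cells that hold it cannot be told apart.

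In replete BY4741 with CHX, the cytosolic genes had a median mRNA level of 253 RPKM (range 15.5 to 520) and the mitochondrial genes 21.7 RPKM (15.9 to 38.6). The median footprint level was 251 RPKM (6.72 to 388) for cytosolic and 7.31 RPKM (3.26 to 16.7) for mitochondrial genes. Of the cytosolic genes, only GRS2 lay within the range of the mitochondrial genes in footprints, and the next lowest was GLN4, the glutaminyl-tRNA synthetase, at 95.7 RPKM. The highest footprint levels were those of DED81 (asparaginyl) at 388, ARC1 at 384, GUS1 (glutamyl) at 362, KRS1 (lysyl) at 346 and GRS1 (glycyl) at 345 RPKM. Median TE was 0.845 for the cytosolic and 0.350 for the mitochondrial genes, with ranges of 0.433 to 1.23 and 0.178 to 0.569. The 2 classes thus overlapped in TE with GRS2 included, which had the lowest cytosolic TE, and without it that overlap would be narrower. In footprint level they did not overlap, GRS2 apart. These are levels of 1 sample and were not tested.

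A cytosolic and a mitochondrial enzyme exist for the same amino acid in 13 pairings, with MSF1, the mitochondrial phenylalanyl-tRNA synthetase, set against both subunits of the cytosolic enzyme. In replete BY4741 the mRNA level of the cytosolic gene was 4.99 (WRS1 and MSW1, tryptophan) to 22.8 (ILS1 and ISM1, isoleucine) times that of its mitochondrial counterpart, with a median of 11.8. For footprints the ratio was 8.74 to 84.7 with a median of 35.5, and the same pairings stood at its ends.

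Most cytosolic synthetase genes fell in mRNA, footprints and TE on starvation with CHX. Of the 21 genes, mRNA of 20 fell and that of 1, GRS2, rose in edgeR's quasi-likelihood test over the 4 strains, with the strain as a block and a Benjamini-Hochberg adjusted p under 0.05. Among the 5069 genes tested, 38.2% fell and 42.0% rose in mRNA. The median change of the cytosolic genes was -0.87 on the log2 scale, against 0.03 for all genes tested. Footprints likewise fell for 20 and rose for GRS2, with a median of -1.51 against 0.05 for all genes (36.1% of all genes fell, 39.8% rose). TE fell for 18 (25.3% of all genes), with a median of -0.74 against -0.04. The 3 cytosolic genes without a called TE change were GRS2, SES1 (seryl-tRNA synthetase, -0.26) and ARC1 (-0.19).

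The mitochondrial genes changed less and in both directions. Their mRNA rose for MSD1, MSF1, MSR1, MSY1 and SLM5, fell for ISM1 and was not called for 7. Its median change was 0.08 on the log2 scale, and of all genes 42.0% rose and 38.2% fell. Footprints rose for SLM5, MSR1, MSY1 and MSF1 and fell for MSD1, MST1, ISM1, NAM2, MSW1 and MSK1. Their median change was 0.05, and of all genes 39.8% rose and 36.1% fell. TE fell for 5 (25.3% of all genes), MSD1 (aspartyl), MSK1 (lysyl), MSW1 (tryptophanyl), NAM2 (leucyl) and ISM1 (isoleucyl). TE rose for 0 of 13 in edgeR (15.8% of all genes), for 0 at an unadjusted p under 0.05 and for 0 in DESeq2. Of the 5, MSK1 had a TE change of -0.71, NAM2 -0.71, MSW1 -0.62, MSD1 -0.45 and ISM1 -0.34. DIA4, the seryl-tRNA synthetase of mitochondria, had the highest fitted TE change of the class, 0.30, which did not pass. For NAM2, MSW1 and MSK1 the fall in footprints went with mRNA changes of 0.11, -0.00 and -0.06 that did not pass the test.

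**Figure D1:**
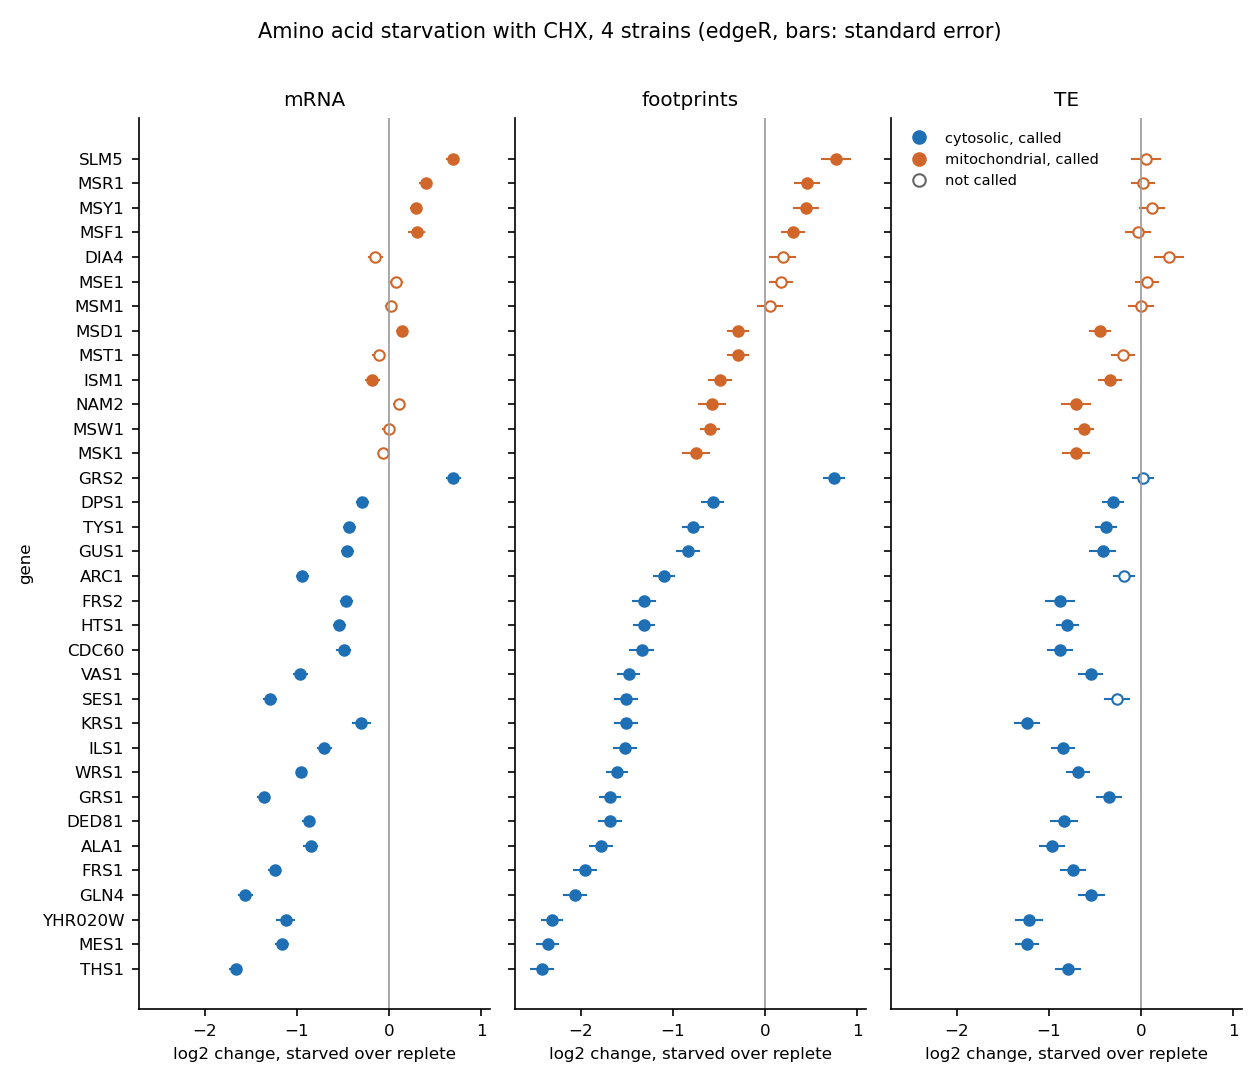
Log2 change of each synthetase gene on starvation with CHX, for mRNA, footprints and TE, from edgeR's fit over 4 strains (points: estimate, bars: standard error, open points: adjusted p not under 0.05). Cytosolic genes other than GRS2 lie left of 0 in mRNA and footprints, from THS1 at -2.42 in footprints to DPS1 at -0.57, and the mitochondrial genes lie between -0.75 and 0.77 in footprints.

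As a share of all counts, footprints of the cytosolic genes took 2.02% ± 0.170 (SD, n = 4 strains) in replete and 0.976% ± 0.0509 in starved cells. The ranges, 1.77 to 2.13% and 0.900 to 1.01%, did not overlap. Their mRNA took 1.97% ± 0.0750 and 1.17% ± 0.0294. Footprints of the mitochondrial genes took 0.0352% ± 0.00519 in replete and 0.0440% ± 0.00177 in starved cells, ranges that did not overlap either (0.0290 to 0.0399% and 0.0413 to 0.0450%). Their mRNA shares, 0.0841% ± 0.00744 and 0.0938% ± 0.00589, overlapped.

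THS1, the threonyl-tRNA synthetase (chromosome IX, 212499 to 214703), had the largest fall of the class in mRNA and footprints. Its mRNA was 318, 408, 404 and 400 RPKM in replete BY4741, yJW1861, yJW1862 and yJW1863 and 117, 148, 145 and 136 RPKM after starvation. Its footprints were 327, 457, 474 and 456 RPKM before and 68.0, 114, 116 and 98.9 RPKM after. In neither measure did the groups overlap. A starved value below the replete one in each strain was a condition of choosing this gene. The fitted log2 changes were -1.66 for mRNA (SE 0.06, adjusted p = 1.1e-08), -2.42 for footprints (SE 0.12, adjusted p = 5.9e-08) and -0.79 for TE (SE 0.13, adjusted p = 5.1e-04).

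GLN4, the glutaminyl-tRNA synthetase (chromosome XV, 649303 to 651732), had the second largest fall in mRNA. Its mRNA was 174, 194, 197 and 188 RPKM in the replete strains, in the same order, and 67.4, 80.8, 78.9 and 63.5 RPKM in the starved ones, with no overlap. Its footprints were 95.7, 176, 191 and 172 RPKM and then 30.9, 58.9, 51.4 and 44.2 RPKM. The footprint groups did not overlap either. The changes were -1.56 in mRNA (SE 0.07, adjusted p = 2.2e-08), -2.06 in footprints (SE 0.12, adjusted p = 1.5e-07) and -0.54 in TE (SE 0.14, adjusted p = 0.0087). The TE call was lost without yJW1862, at -0.47.

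MES1, the methionyl-tRNA synthetase (chromosome VII, 1019598 to 1021853), and KRS1, the lysyl-tRNA synthetase (chromosome IV, 525440 to 527215), had the largest falls in TE. TE of MES1 was 0.620, 1.04, 0.978 and 0.930 in the replete strains and 0.313, 0.501, 0.429 and 0.425 in the starved ones. TE of KRS1 was 0.695, 1.03, 1.02 and 1.01 before and 0.289, 0.492, 0.470 and 0.536 after. For both genes every starved value was below every replete value, and the fitted TE change was -1.24, with adjusted p = 8.6e-06 for MES1 (SE 0.12) and 2.6e-05 for KRS1 (SE 0.13).

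The 2 genes reached that TE change from different mRNA changes. MES1 mRNA was 199, 198, 207 and 226 RPKM replete and 112, 90.7, 104 and 116 RPKM starved, a change of -1.16 (SE 0.07, adjusted p = 2.1e-07). KRS1 mRNA was 498, 473, 482 and 529 RPKM replete and 538, 371, 441 and 492 RPKM starved. The KRS1 groups overlapped, the starved BY4741 sample being the highest of all 8, and the fitted change of -0.30 (SE 0.09, adjusted p = 0.01) was no longer called without yJW1861 (-0.22). In footprints MES1 fell from 123, 205, 202 and 210 RPKM to 35.1, 45.4, 44.7 and 49.1 RPKM, by 2.36 on the log2 scale (SE 0.11, adjusted p = 4.7e-08). KRS1 footprints fell from 346, 486, 494 and 535 RPKM to 156, 183, 207 and 264 RPKM, by 1.51 (SE 0.12, adjusted p = 1.4e-06).

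YHR020W, the prolyl-tRNA synthetase (chromosome VIII, 143996 to 146062), lies beside DED81 (chromosome VIII, 141894 to 143558). Its footprints were 238, 224, 242 and 271 RPKM in the replete strains and 53.0, 55.0, 63.8 and 71.7 RPKM in the starved ones. Its mRNA was 206, 214, 212 and 240 RPKM and then 134, 96.9, 97.2 and 130 RPKM. Neither measure overlapped between the conditions, and the log2 changes were -2.31 in footprints (SE 0.11, adjusted p = 3.8e-08), -1.12 in mRNA (SE 0.09, adjusted p = 2.6e-06) and -1.22 in TE (SE 0.14, adjusted p = 3.3e-05). The corresponding changes of DED81 were -1.68, -0.87 and -0.84.

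The paralogs GRS1 and GRS2 moved in opposite directions. GRS1 (chromosome II, 481364 to 483367) encodes the glycyl-tRNA synthetase of both compartments, and GRS2 (chromosome XVI, 702114 to 703970) is its weakly expressed duplicate. GRS1 mRNA was 409, 467, 450 and 452 RPKM replete and 166, 218, 207 and 195 RPKM starved. GRS2 mRNA was 15.5, 23.3, 21.6 and 17.4 RPKM replete and 33.0, 39.3, 40.3 and 29.5 RPKM starved. Each gene's conditions were apart in all 4 strains, and GRS1 remained the higher of the paralogs in every sample. The mRNA changes were -1.36 for GRS1 (SE 0.06, adjusted p = 3.4e-08) and 0.70 for GRS2 (SE 0.07, adjusted p = 1.1e-05).

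Footprints of the paralogs followed their mRNA. GRS1 footprints were 345, 386, 389 and 395 RPKM replete and 112, 159, 163 and 151 RPKM starved, a change of -1.68 (SE 0.11, adjusted p = 5.1e-07). GRS2 footprints were 6.72, 10.9, 12.0 and 8.78 RPKM replete and 15.5, 20.3, 22.9 and 19.8 RPKM starved, a change of 0.75 (SE 0.11, adjusted p = 1.1e-04). The TE change of GRS1 was -0.35 (SE 0.13, adjusted p = 0.047), a call that most alternative settings did not keep. That of GRS2 was 0.02 (SE 0.11, adjusted p = 0.88).

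SLM5, the mitochondrial asparaginyl-tRNA synthetase (chromosome III, 160744 to 162222), had the largest rise of its class. Its mRNA was 18.6, 16.2, 17.7 and 13.8 RPKM replete and 33.0, 28.9, 30.6 and 27.7 RPKM starved. Its footprints were 6.93, 11.3, 9.96 and 8.77 RPKM replete and 18.0, 16.3, 21.8 and 20.8 RPKM starved. The conditions did not overlap, and the changes were 0.69 in mRNA (SE 0.06, adjusted p = 4.8e-06), 0.77 in footprints (SE 0.15, adjusted p = 7.9e-04) and 0.05 in TE (SE 0.15, adjusted p = 0.8). Among mitochondrial genes the next largest rises in mRNA and in footprints were those of MSR1, the arginyl-tRNA synthetase, at 0.40 and 0.45.

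MSF1 and MSY1, the mitochondrial phenylalanyl- and tyrosyl-tRNA synthetases, rose less. MSF1 mRNA was 20.9, 21.3, 22.9 and 15.0 RPKM replete and 28.4, 29.6, 27.3 and 25.1 RPKM starved (0.30, SE 0.08, adjusted p = 0.0061). MSY1 mRNA was 29.3, 29.2, 30.9 and 25.4 RPKM replete and 38.4, 40.2, 41.5 and 38.1 RPKM starved (0.29, SE 0.05, adjusted p = 8.1e-04). Both were apart in mRNA. In footprints the conditions of both overlapped. For MSY1 this was 14.4 RPKM in replete yJW1861 against 14.3 RPKM in starved BY4741, strains counted with different masks. Within strains MSY1 footprints rose in 4 of 4, by 0.15 to 0.66 with the median of all genes subtracted. The footprint change of MSF1, 0.30 (SE 0.12, adjusted p = 0.046 in edgeR), was lost under most alternatives.

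Enzymes of shared build did not share 1 size of change. FRS1 and FRS2 encode the β and α subunits of the cytosolic phenylalanyl-tRNA synthetase, and their mRNA changes were -1.24 and -0.46. Their footprint changes were -1.95 and -1.31 and their TE changes -0.74 and -0.88, so that the subunits were nearer to each other in TE than in mRNA. ARC1, GUS1 and MES1, whose products form 1 complex, had mRNA changes of -0.94, -0.45 and -1.16 and TE changes of -0.19, -0.42 and -1.24. No test of the differences between genes was run.

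Of the cytosolic class, 4 genes were listed beforehand as encoding enzymes of both the cytosol and mitochondria. These were ALA1 (alanyl), GRS1 (glycyl), HTS1 (histidyl) and VAS1 (valyl), a list that may not be complete. Their mRNA changes of -0.85, -1.36, -0.54 and -0.96 were all called as falls, as were their footprint changes of -1.78, -1.68, -1.31 and -1.48. Their TE changes ranged from -0.97 for ALA1 to -0.35 for GRS1.

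Within pairings for the same amino acid, the log2 change of the cytosolic gene was below that of the mitochondrial one in 13 of 13 for mRNA and 13 of 13 for footprints. The median difference of the log2 changes, from edgeR's fit over the 4 strains, reached -0.76 in mRNA, -1.22 in footprints and -0.53 in TE. The widest differences were those of DED81 and SLM5 (asparagine), -1.56 in mRNA and -2.45 in footprints. For TE the widest was that of MES1 and MSM1 (methionine), -1.24. In TE the exception was DPS1 and MSD1 (aspartate) at 0.13, so that the sign was negative in 12 of 13. For lysine, KRS1 and MSK1 differed by -0.24 in mRNA, the narrowest difference in that measure.

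Of 12 other genes of tRNA charging taken from a set list, 4 rose and 4 fell in mRNA (42.0 and 38.2% of all genes), 5 rose and 4 fell in footprints (39.8 and 36.1%), and 2 rose and 2 fell in TE (15.8 and 25.3%), shares near those of all genes in mRNA and footprints. YDR341C, the cytosolic arginyl-tRNA synthetase, and YNL247W, the cysteinyl-tRNA synthetase, fell in all 3, with footprint changes of -1.32 and -2.11. PTH1, a peptidyl-tRNA hydrolase, rose by 1.27 in mRNA and 1.59 in footprints. GTF1, HER2 and PET112, subunits of the amidotransferase that makes mitochondrial glutaminyl-tRNA, rose in footprints by 0.76, 0.46 and 0.34. FMT1, the formyltransferase of mitochondrial initiator tRNA, rose in footprints (0.78) and TE (0.75). GCN2, the kinase that senses uncharged tRNA, had a footprint change of -0.23, called as a fall.

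The starvation response was next set beside that of the BY4741 pair harvested without CHX. Here log2 ratios of RPKM are given with the median of all genes subtracted, so that 50.0% of all genes lie below 0. In the pairs with CHX the median TE change of the cytosolic genes was -0.85 in BY4741 (95% interval of the median over genes -1.08 to -0.36), -0.59 in yJW1862, -0.73 in yJW1863 and -0.44 in yJW1861. Below 0 lay 20, 21, 20 and 20 of the 21 genes. Without CHX the median was -0.22 (-0.41 to 0.10) and 15 of 21 lay below 0. The median of all genes subtracted in that pair was 0.25 for TE, and without subtraction the cytosolic median was 0.02. In the pairs with CHX the subtracted TE median was 0.10 in BY4741, 0.09 in yJW1862, 0.13 in yJW1863 and 0.03 in yJW1861. Without subtraction their cytosolic medians would also be higher, so the 0.02 is not on the scale of the values given for them. A TE change below -1 was found for 7 of 21 cytosolic genes in BY4741 with CHX, where 9.65% of all genes lay there, and for 0 of 21 without CHX, where 1.57% of all genes did. In yJW1862, yJW1863 and yJW1861 it was found for 2, 3 and 2 of 21, against 5.30, 5.73 and 4.94% of all genes. The 0 is a count of ratios from 1 pair, with no test.

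The class median of the mRNA change was more negative in the pair without CHX than in the pairs with it. This median of the cytosolic genes was -0.78, -0.88, -0.92 and -0.93 in BY4741, yJW1862, yJW1863 and yJW1861 with CHX and -1.04 without. Their median footprint change was -1.67, -1.52, -1.55 and -1.40 with CHX and -1.26 without, where 16 of 21 lay below -1 against 15.4% of all genes. For the mitochondrial genes the median TE change was 0.15, -0.05, -0.10 and -0.16 with CHX and -0.24 without.

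**Figure D2:**
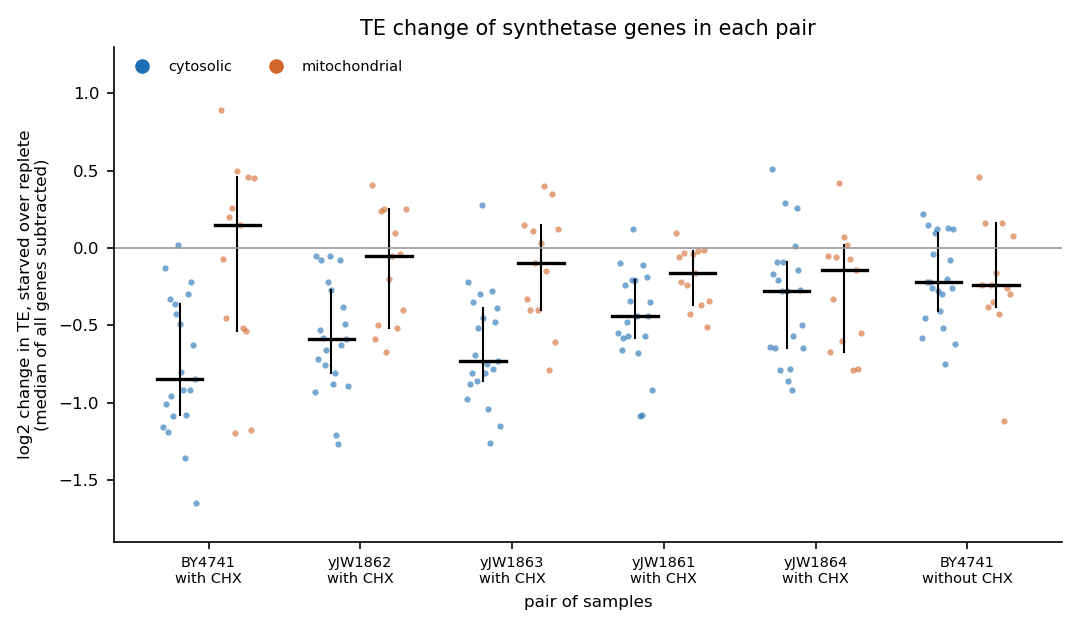
TE change on starvation (log2, median of all genes subtracted) of each cytosolic and mitochondrial synthetase gene in each pair of samples (points: genes, thick bars: class medians, thin bars: 95% intervals of the medians). The cytosolic medians are -0.85 to -0.44 in the 4 strains with CHX, -0.28 in yJW1864 and -0.22 in BY4741 without CHX.

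Gene by gene, THS1 mRNA without CHX was 392 RPKM replete and 110 RPKM starved, and its footprints 414 and 150 RPKM. Its TE change in that pair was 0.13 (95% counting interval 0.04 to 0.21), against a fitted -0.79 over the 4 strains with CHX. GRS1 and GLN4 had TE changes of 0.10 (0.01 to 0.19) and -0.04 (-0.16 to 0.08) without CHX. MES1, YHR020W and KRS1 kept negative TE changes there, of -0.75 (-0.87 to -0.64), -0.62 (-0.72 to -0.52) and -0.52 (-0.59 to -0.45). GRS2 mRNA was 17.7 RPKM replete and 30.6 RPKM starved without CHX, and its footprints 10.4 and 23.1 RPKM, and SLM5 mRNA was 12.1 and 21.8 RPKM, so both stood higher in starved cells in either harvest. Counting intervals cover reads only, and not the spread between cultures.

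The difference between the responses without and with CHX was fitted as an interaction in edgeR over 5049 genes, the pair without CHX being assumed to vary like the others. Of the 34 genes, 0 were called in mRNA (0.792% of all genes higher and 4.93% lower), 0 in footprints (0.337% and 0.0990%) and 0 in TE (2.48% and 0.218%). At an unadjusted p under 0.05 there were 8 in mRNA (21.3% of all genes), 2 in footprints (10.7%) and 4 in TE (14.2%), the last being KRS1, MSD1, THS1 and WRS1. DESeq2 called 2 in mRNA, THS1 and WRS1, 0 in footprints and 1 in TE, THS1. With RLE scaling edgeR called 1 in mRNA, NAM2.

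The fitted TE difference was nonetheless above 0 for 21 of 21 cytosolic genes, against 57.2% of all genes. Its median was 0.44 and its range 0.03 to 0.90, against a median of 0.08 for all genes. For the mitochondrial genes 7 of 13 lay above 0 and the median was 0.01. All genes of a class share the libraries of the 1 pair, so these counts are not independent observations. The TE difference of THS1 was 0.90 (95% interval 0.36 to 1.43, adjusted p = 0.14), that of KRS1 0.70 (0.11 to 1.29, adjusted p = 0.33) and that of GRS2 0.07 (-0.44 to 0.59, adjusted p = 0.94). These intervals are wide, and a p above the threshold does not show that the responses were alike.

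The libraries with CHX were also set directly against those without, 1 sample each. In replete BY4741 the cytosolic genes had a median log2 ratio, CHX over no CHX, of -0.42 in mRNA (20 of 21 below 0), 0.18 in footprints and 0.63 in TE (20 of 21 above 0, up to 1.04 for DED81), with 50.0% of all genes on each side. In starved BY4741 the medians were -0.18 in mRNA (16 of 21 below 0) and -0.19 in footprints, and in TE 10 lay above and 11 below 0. These ratios are relative to the median of all genes, which was -0.80 in TE for the replete and -0.94 for the starved samples. Without its subtraction, an alternative chosen after seeing the data, the cytosolic TE medians were -0.17 replete and -0.95 starved. The starved mRNA median was then 0.05, and the replete footprint median also changed sign. The direction in replete TE, in replete footprints and in starved mRNA thus depends on the scaling. In starved cells KRS1 had the highest mRNA ratio (0.49) and the lowest TE ratio (-0.71) of the cytosolic class, with no test of its difference from the others. The mitochondrial genes had medians of 0.15 and 0.22 in mRNA and -0.30 and -0.16 in TE in replete and starved cells.

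The strain labelled yJW1864 was compared with the 4 strains in the same way, over 5065 genes and as 1 pair. Its median changes in the cytosolic class were -0.73 in mRNA, -1.38 in footprints and -0.28 in TE (95% interval of the median -0.65 to -0.09), with 17 of 21 below 0 in TE. In mRNA the difference from the 4 strains was called higher for THS1 (10.3% of all genes) and lower for FRS2 and WRS1 (5.19% of all genes). In footprints it was called higher for THS1, YHR020W and MES1 (10.0% of all genes), and lower for 0 of 34 (2.78% of all genes). In TE 0 were called (2.94% higher and 0.217% lower over all genes), with 4 at an unadjusted p under 0.05 (11.8% of all genes) and 1, THS1, called by DESeq2. The unadjusted counts were 8 in mRNA (31.7%) and 7 in footprints (26.4%), and DESeq2 called 4 in mRNA and 6 in footprints, of which FRS2 (-0.88) and SLM5 (-1.11) were lower.

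THS1 had the largest called difference in that strain. Its mRNA was 492 RPKM replete and 293 RPKM starved, and its footprints 549 and 382 RPKM, a smaller fall than in any of the 4 strains. The differences of the log2 changes, yJW1864 minus the 4 strains, were 0.68 for mRNA (SE 0.15, adjusted p = 0.015) and 1.74 for footprints (SE 0.26, adjusted p = 0.002). YHR020W, with footprints of 334 and 170 RPKM, differed by 1.17 (SE 0.23, adjusted p = 0.0098). MES1, with footprints of 259 and 104 RPKM, differed by 0.89 (SE 0.25, adjusted p = 0.044), a call that was lost with RLE scaling (0.81) and without yJW1862 (0.87), yJW1863 (0.86) or yJW1861 (0.88). FRS2 fell further than in the 4 strains, with an mRNA difference of -0.90 (SE 0.14, adjusted p = 0.0031), as did WRS1, at -0.53 (SE 0.12, adjusted p = 0.017).

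Over the YMC the 2 classes were out of step. Oxygen in the medium stood at 33.73% at time point 1, peaked at 73.38% at time point 6 and was 47.28% at time point 11. The labels place time points 4 to 7 in the reductive charging phase (RC), 9 to 11 in the oxidative phase (OX), and 1, 2 and 12 to 16 in the reductive building phase (RB). There was 1 sample per time point, so ranges are values with no test. Cytosolic mRNA was highest at time point 11 for 11 of 21 genes (10.9% of all genes) and at time point 12 for 7 (4.94%). Mitochondrial mRNA was lowest at time point 11 for 9 of 13 (32.3% of all genes) and at time point 10 for the other 4 (10.2%).

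Cytosolic footprints were highest at time point 11 for 16 of 21 genes (16.4% of all genes) and TE for 20 of 21 (22.3%). With each sample scaled to its own median, TE was highest within time points 10 to 12 for 11 of 21 (22.4%), mRNA for 19 of 21 (35.6%) and footprints for 19 of 21 (32.1%). In the same window 9 of 21 cytosolic genes had their lowest scaled TE (30.8% of all genes), 7 of them at time point 10. On this scale mitochondrial mRNA was highest within time points 1 to 3 for 12 of 13 genes (30.6% of all genes), footprints for 13 of 13 (25.9%) and TE for 13 of 13 (23.6%). The lowest values of the mitochondrial genes fell within time points 6 to 11 for 13 of 13 in each measure (50.6, 52.3 and 46.4% of all genes in mRNA, footprints and TE). The exceptions in mRNA were MSE1, highest at time point 15 among the mitochondrial genes, and GUS1 and GRS2, highest at time points 16 and 2 among the cytosolic ones.

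**Figure D3:**
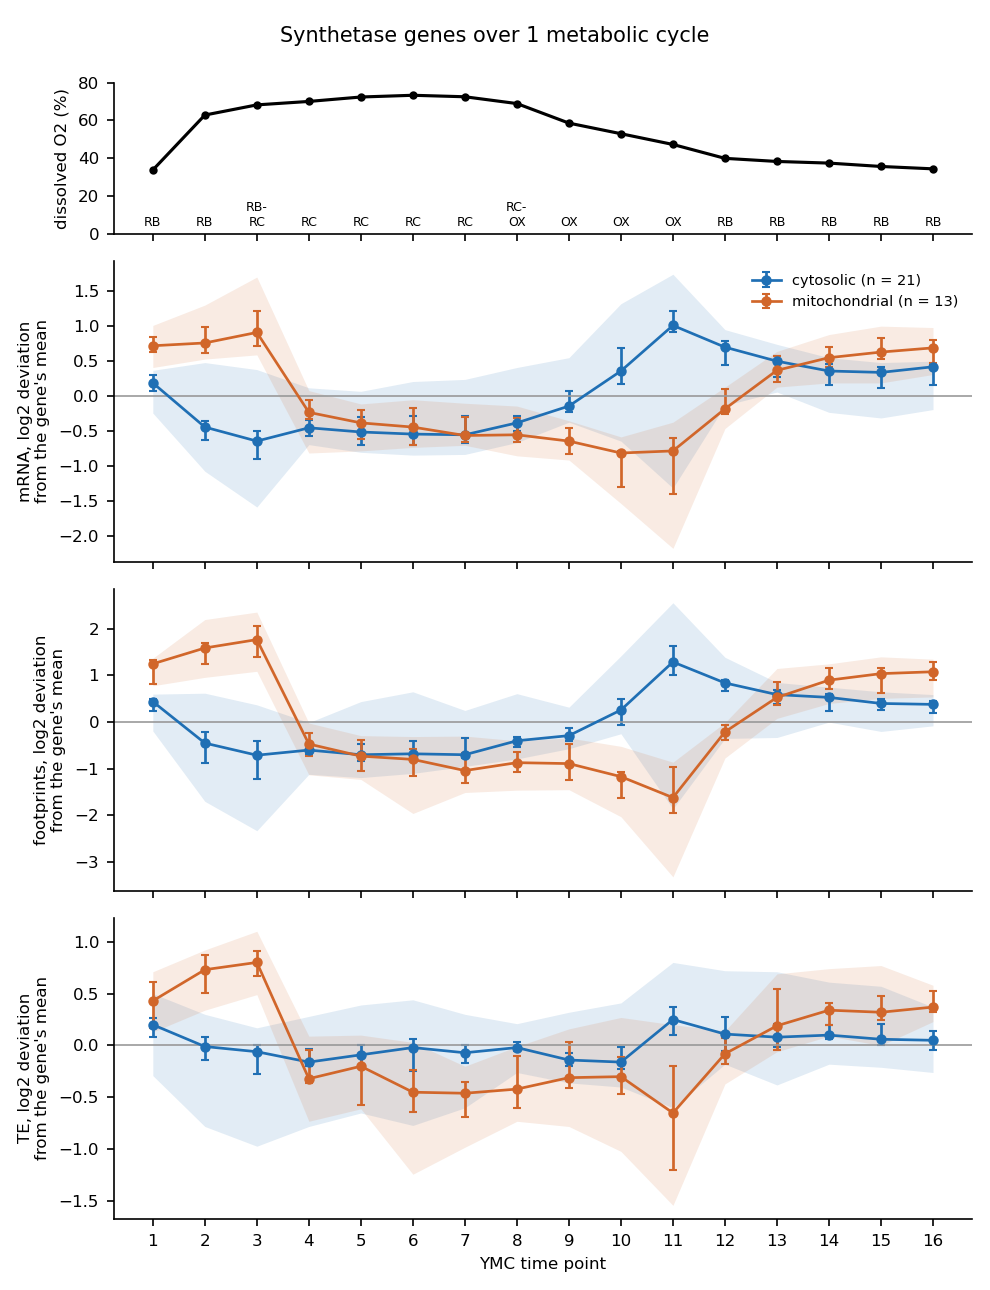
Dissolved oxygen with the labelled phase at each of 16 YMC time points (top), and the class medians of mRNA, footprints and TE as log2 deviations from each gene's own mean over the cycle, each sample centred on its median (error bars: 95% interval of the median, shading: lowest to highest gene). At time point 11 the mRNA medians are 1.01 for the cytosolic and -0.78 for the mitochondrial genes, and at time point 3 they are -0.64 and 0.91.

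In these deviations the median of the cytosolic mRNA passed from -0.64 at time point 3 to 1.01 at time point 11 and 0.42 at time point 16. That of the mitochondrial mRNA passed from 0.91 at time point 3 to -0.23 at time point 4, -0.78 at time point 11 and 0.69 at time point 16. The drop between time points 3 and 4 was larger in mitochondrial footprints, from 1.77 to -0.47, and was also present in TE, from 0.80 to -0.32. At time points 13 to 16 the medians of both classes were above 0 in mRNA.

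The median mRNA range, highest over lowest RPKM of the 16 samples, was 3.41-fold for the cytosolic genes (95% interval of the median 2.99 to 4.07), 4.06-fold for the mitochondrial genes (3.33 to 5.83) and 2.72-fold over 4839 genes. A range of at least 4-fold was found for 6 of 21 cytosolic and 7 of 13 mitochondrial genes in mRNA (29.7% of all genes), for 18 and 13 in footprints (49.2%), and for 1 and 3 in TE (12.7%). The median footprint range was 5.76-fold in cytosolic and 10.9-fold in mitochondrial genes, against 3.93-fold over all genes, and the median TE range 2.16-fold and 3.43-fold, against 2.18-fold. Without time point 11, an alternative chosen after seeing the data, the mRNA count dropped from 13 to 6 of the 34.

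YHR020W had the widest mRNA range of the cytosolic class. Its mRNA was lowest at time point 3 (38.8 RPKM), had a median of 148 and was highest at time point 11 (350 RPKM), a range of 9.04-fold (counting interval 8.65 to 9.44). KRS1 mRNA went from 43.4 RPKM at time point 3, over a median of 110, to 346 RPKM at time point 11. KRS1 also had the widest footprint range of the class, with a lowest value of 11.4, a median of 97.0 and a highest of 437 RPKM, 38.4-fold (35.6 to 41.4). Its TE was 0.262 at its lowest, 0.727 at the median and 1.26 at its highest, a range of 4.83-fold and the only cytosolic one over 4-fold. MES1 came next in TE with 3.73-fold, so that the pair of genes with the largest TE falls on starvation had the widest TE ranges of the cytosolic class, in libraries all harvested with CHX.

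MSF1 had the widest mRNA range of all 34 genes. Its mRNA was 3.52 RPKM at time point 11, 15.6 at the median and 54.5 at time point 3, a range of 15.5-fold (13.2 to 18.2). Its footprints were 2.08 RPKM at time point 11, 17.5 at the median and 85.0 at time point 2, a range of 40.9-fold (33.6 to 49.8). MSY1 had the widest TE range, from 0.259 at time point 6, over a median of 0.852, to 1.38 at time point 2, 5.33-fold (4.50 to 6.32). MSY1 mRNA ranged only 3.33-fold, from 18.6 to 62.0 RPKM, with footprints from 4.84 to 71.7 RPKM. NAM2 and ISM1 also had TE ranges over 4-fold, at 4.34 and 4.36. SLM5 mRNA lay between 10.2 RPKM at time point 11 and 41.3 at time point 1, with a median of 22.5.

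The glycyl-tRNA synthetase paralogs were opposed in the YMC too. GRS1 mRNA was lowest at time point 6 (100 RPKM), had a median of 184 and was highest at time point 12 (306 RPKM), a range of 3.05-fold. GRS2 mRNA was lowest at time point 11 (7.68 RPKM), had a median of 23.7 and was highest at time point 8 (28.8 RPKM), 3.75-fold (3.38 to 4.16). GRS2 footprints were 3.90 RPKM at time point 11, 14.7 at the median and 21.9 at time point 9, where those of GRS1 lay between 88.1 and 425 RPKM. GRS2 was thus the 1 cytosolic gene with its lowest mRNA at the time point where most of the class was highest.

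**Figure D4:**
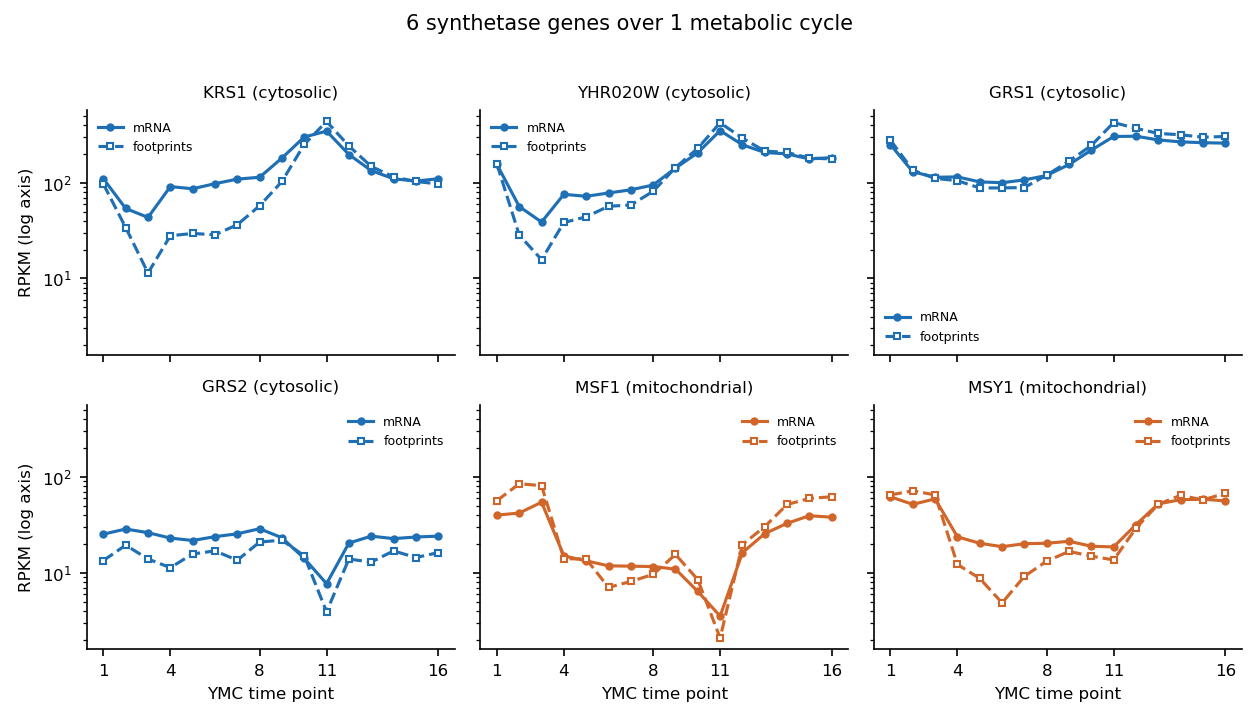
mRNA and footprint RPKM (log axis, 1 sample per time point) of 6 synthetase genes over the 16 YMC time points. KRS1 and YHR020W peak at time point 11 at 346 and 350 RPKM of mRNA, where GRS2 and MSF1 are lowest at 7.68 and 3.52 RPKM, while MSY1 footprints are lowest at time point 6.

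The narrowest mRNA ranges were those of ARC1 (1.56-fold), DPS1, the aspartyl-tRNA synthetase (1.77-fold), and GUS1 (1.98-fold). MES1, the third protein of the complex with ARC1 and GUS1, ranged 4.72-fold in mRNA and 17.6-fold in footprints. FRS1 and FRS2 ranged 3.52- and 4.86-fold in mRNA, and both were highest at time point 11. The genes listed for both compartments, ALA1, GRS1, HTS1 and VAS1, had mRNA ranges of 3.29, 3.05, 3.72 and 2.99. With each sample scaled to its median, their mRNA was highest at time point 11, as for most cytosolic genes. Of the other genes of tRNA charging, YDR341C (3.72-fold) and YNL247W (3.58-fold) were highest at time point 11, and AIM10, which encodes a putative mitochondrial prolyl-tRNA synthetase, was highest at time point 3 and lowest at time point 11 with a range of 7.30-fold.

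RC and OX were compared through time points 4 and 11, with the median of all genes subtracted. Cytosolic genes were lower at time point 4 in mRNA for 20 of 21, with a median log2 ratio of -1.51 (95% interval of the median -1.62 to -1.30), and 17 of 21 were below -1 against 18.7% of all genes. Their footprints had a median of -2.05, with 17 of 21 below -1 (25.1% of all genes), and their TE a median of -0.56 with 19 of 21 below 0 and 2 below -1 (10.4% of all genes). The lowest TE ratios were those of KRS1 (-1.70) and MES1 (-1.39). The mitochondrial genes had medians of 0.89 in mRNA, 1.17 in footprints and 0.14 in TE (-0.20 without the subtraction), and GRS2, at 1.47 in mRNA and 1.79 in footprints, had ratios above those medians. NAM2 had the highest TE ratio, 1.36, and MSF1 the highest mRNA ratio, 1.98, while MSE1, the mitochondrial glutamyl-tRNA synthetase, was the 1 mitochondrial gene below 0 in mRNA (-0.18).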

How the data were processed

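Libraries of footprints and of mRNA were analysed from 28 samples. Per the labels and methods, the authors removed rRNA and tRNA reads with Bowtie 1.1.2 and aligned the rest with TopHat2 2.1.1 to sacCer3. The methods give counts per CDS without non-unique positions, the first 30 and the last 5 codons. The masks of yJW1861 to yJW1863 were smaller than this, so their counts can include reads near the ends of the CDS. What this does to changes within these strains was not tested. A script of the authors removed molecular identifiers from reads, with collapsing of duplicates not given in the sources used here. The deposited values are raw counts per gene and RPKM, which the authors scaled to the counted length and the library's total. Dissolved oxygen was deposited as a percent. The other deposited columns used here, time points and counted lengths, are not measures of expression. All value columns matched a sample.

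TE was computed as footprint over mRNA RPKM. Dubious ORFs (784) were left out, and genes needed 128 mRNA counts and 1 footprint in both samples of a pair, in all 16 YMC samples, or, in fits, on average. Counts were tested with edgeR 4.0.16 (TMM, quasi-likelihood, strain block, Benjamini-Hochberg adjustment, R 4.3.3), with TE tested as a starvation by library type term. That fit has no term for the sample, so the mRNA and footprint libraries of 1 sample count as independent. Each strain's replete and starved cells came from 1 culture, which the block follows. Their deviations from the group means correlated across genes with r from 0.781 to 0.874 for mRNA and 0.515 to 0.778 for footprints, which can in part come from the mask a strain's samples share. Intervals of class medians are order-statistic intervals over genes, which are not replicates. The test code was tested on simulated data.

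All 34 genes could be named. Values in every sample were given for the 2 largest called rises and falls of each measure, the 2 widest YMC ranges of mRNA and TE, and GRS1 and GRS2. The members, lists and settings were chosen with earlier results of these data known. Alternatives were RLE scaling, DESeq2 1.42.0, fits with each strain left out, without the block and without the filter, no subtraction of the median, other minimums, and, over the YMC, second highest over second lowest values and samples scaled to their medians.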

Additional observations from a re-analysis of the deposited data

Results flagged for a closer look

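The starvation response of 6 gene and measure combinations differed between the libraries labelled yJW1864 and the 4 other strains by the interaction test in edgeR, with the 1 pair of yJW1864 assumed to vary like the others. These were mRNA of FRS2 (-0.90), THS1 (0.68) and WRS1 (-0.53) and footprints of MES1 (0.89), YHR020W (1.17) and THS1 (1.74), each as the log2 change in yJW1864 minus that in the 4 strains. The same libraries hold 921 and 1062 mRNA counts of STB3, which the label gives as deleted, and what the strain's genotype contributes was not tested. Among 36 groups of 4 values tested for a value far from the others, none was found.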

How the results depend on the processing

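The counts over the 4 strains were lower with a strain or the block left out, most so in TE. With a strain left out in turn, 24 to 26 of the 34 genes were called in mRNA (27 with all strains), 28 to 30 in footprints (31) and 17 to 21 in TE (23). Without the replicate block 24, 28 and 18 were called. Of the class medians, ranges and counts, 169 stayed near their value over all settings, 33 moved and 2 were labelled reversed. That label leaves out other medians that changed sign, which are listed below. Of the values of single genes, 289 kept their call over all settings and 23 lost it. KRS1 mRNA lost it without the block (-0.28) and without yJW1861 (-0.22), GLN4 TE without yJW1862 (-0.47), and MSF1 footprints and GRS1 TE under most settings.

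For the pair without CHX, calls in mRNA numbered 1 with RLE and 2 with DESeq2, and in TE 1 with DESeq2, against 0. For yJW1864, leaving out a strain gave 1 to 4 calls in mRNA (1 without yJW1862, where THS1 and WRS1 were lost) and 2 to 6 in footprints (6 without BY4741), DESeq2 gave 6 in footprints and 1 in TE, and MES1 footprints were not called with RLE (0.81) or without yJW1862, yJW1863 or yJW1861 (0.86 to 0.88). The cause was not tested.

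Without subtracting the median of all genes, the medians with CHX were -0.69 in cytosolic mRNA, -1.22 in cytosolic footprints, 0.26 in mitochondrial mRNA and 0.36 in mitochondrial footprints. Without CHX the median was -0.74 in cytosolic footprints, of the same sign as the subtracted -1.26. Medians of the other sign were 0.27 in mitochondrial footprints, 0.16 in mitochondrial mRNA and 0.02 in cytosolic TE, against the subtracted -0.25, -0.12 and -0.22. Time point 4 over 11 gave -2.30 in cytosolic footprints, -0.91 in cytosolic TE and -0.20, against 0.14, in mitochondrial TE. For CHX over no CHX, leaving out the subtraction was chosen after seeing the data. The replete cytosolic medians were then -0.12 in mRNA, -0.34 in footprints and -0.17 in TE. Those of footprints and TE were of the other sign than the subtracted 0.18 and 0.63. The starved ones were 0.05 in mRNA, -0.93 in footprints and -0.95 in TE, with mRNA of the other sign than the subtracted -0.18. The mitochondrial ones were 0.45, -0.56 and -1.09 replete and 0.45, -0.58 and -1.10 starved. The starved mitochondrial footprint median was of the other sign than the subtracted 0.16. With second highest over second lowest values the median ranges were 2.94-fold in cytosolic mRNA, 3.16-fold in mitochondrial mRNA and 2.50-fold in mitochondrial TE, with 4 genes over 4-fold in mRNA and 1 in TE. Scaling samples to their medians gave 1.53-fold in cytosolic TE and 12.7-fold in mitochondrial footprints. Without time point 11, chosen after seeing the data, 6 genes exceeded 4-fold in mRNA.

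Precision was limited by 1 sample per time point and per condition of a strain, and by low footprint counts of the mitochondrial genes, 204 to 700 in replete BY4741 with CHX against 401 to 33016 for the cytosolic genes.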
